A study of Mus musculus with 21 samples.

Results

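The transcripts of 10 genes that mark microglia and related macrophages were followed in the embryonic mouse cortex of 3 lines with mutations of Pax6, a transcription factor of cortical progenitor cells. The 10 genes were C1qa, C1qb, C1qc, Csf1r, Cx3cr1, Ctss, Lyz2, Tyrobp, Trem2 and Aif1, and they were taken as a list of names, by the annotation of the probe sets. The list was chosen with earlier results of these data known. They had 16 of the 45101 probe sets on the array, and all 10 were among the 13850 genes tested. Microglia are the resident macrophages of the brain. They arise from yolk sac progenitors, enter the neural tube before the cortex is formed and depend on the receptor encoded by Csf1r. In the embryonic cortex they survey the tissue, clear dying cells and are known to engulf progenitor cells. They live among the Pax6-expressing cells and do not belong to the neural lineage in which Pax6 acts. The 10 transcripts are taken as marks of microglia, and which cells made them in whole cortex was not measured.

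The samples were total RNA of rostral cerebral cortex at embryonic day 14, each hybridized to 1 Affymetrix array. The study asks what parts of the paired domain of Pax6 do, and the Sey allele is known to truncate the protein. Mutants of the Leca4 allele gave 3 arrays and their wild-type littermates 4, both on a 129 S6 background. Mutants of the Small-eye allele (Sey) gave 4 arrays and their wild-type littermates 3, on the C57BL/6J x DBA/2J hybrid background. Mutants of the Leca2 allele gave 4 arrays and their wild-type littermates 3, again on 129 S6. The labels call the arrays of a group biological replicates and do not give the zygosity of the mutants, the sex, or whether an array holds RNA of a single embryo or of a pool. The mutations are constitutive, so every cell of a mutant embryo carries them. By their Xist and Y-linked transcripts, 2 of 3 Leca4 mutant arrays and 3 of 4 Leca4 control arrays were male. In the Sey line 1 of 4 mutant arrays was male, as were all 3 control arrays. In the Leca2 line 2 of 4 mutant arrays were male, and all 3 control arrays were female.

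The deposited values are on a log2 scale, and the lines appear to have been normalized separately, with array medians of 6.25 to 6.26 in Leca4, 6.03 to 6.07 in Sey and 6.12 to 6.18 in Leca2. Levels are therefore compared within a line, and changes between lines. Arrays of 1 group correlated with r of 0.9931 or more over all probe sets, and no column was a copy of another. Transcripts of cortical radial glia and projection neurons were high on all 21 arrays, with Fabp7 between 13.58 and 13.88 and Neurod6 between 11.79 and 12.90. Pax6 itself was higher in the mutants of each line, by a log2 change of 0.49 in Leca4 mutants (adjusted p = 0.00276), 0.56 in Sey mutants (adjusted p = 1.84e-04) and 0.93 in Leca2 mutants (adjusted p = 1.1e-05, all in limma). The labels do not say which bases the alleles change, so this level does not check them. A gene is said to rise or fall where its adjusted p was under 0.05 in limma, with Benjamini-Hochberg adjustment over all 13850 genes.

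The starts of several of these genes are shown because they carry the purine-rich core of the PU.1 site. PU.1, encoded by Spi1, is the factor that macrophages and microglia need in order to form. RefSeq windows of mouse assembly GRCm38.p6, running 250 bases before to 50 bases after the start of a gene, were matched by symbol for 7 of the 10 genes, all but C1qa, Csf1r and Tyrobp. The motif searched was AGGAAG on either strand, which reads CTTCCT on the other, and it is printed in capitals. It was present in 5 of the 7 windows, those of C1qb, C1qc, Ctss, Lyz2 and Trem2, against 35.4% of all 32851 windows, and not in those of Cx3cr1 and Aif1. The windows are written 5′ to 3′ on the strand of the gene, which is the minus strand for all of those printed. C1qb (chr4:136886151-136886450), C1qc (chr4:136892865-136893164) and Lyz2 (chr10:117282223-117282522) hold it 2 times each, and Cx3cr1 (chr9:120068247-120068546) stands beside them without it.
C1qb: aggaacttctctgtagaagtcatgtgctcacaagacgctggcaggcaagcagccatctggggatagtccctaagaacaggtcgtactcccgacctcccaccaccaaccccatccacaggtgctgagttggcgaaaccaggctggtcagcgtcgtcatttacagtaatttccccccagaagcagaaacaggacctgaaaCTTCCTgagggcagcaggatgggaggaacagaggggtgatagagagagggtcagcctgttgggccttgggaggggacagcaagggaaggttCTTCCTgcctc
C1qc: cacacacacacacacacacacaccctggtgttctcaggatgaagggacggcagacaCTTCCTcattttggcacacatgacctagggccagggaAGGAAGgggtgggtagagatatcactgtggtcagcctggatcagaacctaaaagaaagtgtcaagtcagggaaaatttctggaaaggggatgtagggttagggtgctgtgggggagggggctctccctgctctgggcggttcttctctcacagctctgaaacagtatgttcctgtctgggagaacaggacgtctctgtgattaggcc
Lyz2: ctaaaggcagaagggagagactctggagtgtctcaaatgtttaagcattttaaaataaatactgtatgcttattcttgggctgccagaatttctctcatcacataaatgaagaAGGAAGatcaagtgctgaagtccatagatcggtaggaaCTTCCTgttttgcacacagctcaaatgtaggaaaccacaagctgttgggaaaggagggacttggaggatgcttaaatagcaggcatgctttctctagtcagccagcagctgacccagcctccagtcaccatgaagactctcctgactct
Cx3cr1: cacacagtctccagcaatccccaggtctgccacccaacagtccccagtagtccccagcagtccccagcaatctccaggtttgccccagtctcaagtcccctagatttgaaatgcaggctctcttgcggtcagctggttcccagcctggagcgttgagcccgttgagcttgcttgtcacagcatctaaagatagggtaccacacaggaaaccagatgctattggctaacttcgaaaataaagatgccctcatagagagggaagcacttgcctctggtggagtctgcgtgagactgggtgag
A match in these letters is a description of the sequence, and no binding was measured. Genes with and without the motif were both among those that rose in Leca4 mutants, as given next: C1qc and Lyz2 with it, Cx3cr1 without.

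In the Leca4 line most of the microglial transcripts were higher in mutant cortex. C1qa, C1qc, Csf1r, Cx3cr1 and Lyz2 rose, by 1.26 to 1.44-fold, and no member fell. That is 5 of 10, where 3.39% of all genes tested rose and 2.24% fell in this comparison. For 8 of the 10 every mutant array lay above every control array, which was so for 8.25% of all genes. The median log2 change of the 10 was 0.39, against 0.01 over all genes, and 9 of the 10 changes were above 0, as were 52.1% of those of all genes. Because the list was chosen with earlier results of these data known, its counts beside the shares of all genes are descriptions. Whole tissue was measured, in which more cells of a type and more RNA per cell cannot be told apart.

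The complement protein C1q starts the classical complement cascade and tags synapses and debris for uptake. It is built from 3 chains, and the genes of the chains lie side by side on chromosome 4 with no other annotated gene between them. C1qa, the A chain, was at 8.08, 8.02 and 7.84 in the Leca4 mutants, against 7.54, 7.30, 7.56 and 7.46 in their controls. The lowest mutant was above the highest control, and the change was 0.52 ± 0.10 (log2, SE), a 1.43-fold rise (adjusted p = 0.00492 in limma). C1qc, the C chain, was at 7.41, 7.44 and 7.24 in the Leca4 mutants, against 6.95, 6.65, 6.89 and 6.88 in the controls. The groups again did not overlap, and C1qc rose 1.44-fold (log2 change 0.52 ± 0.12, adjusted p = 0.0119 in limma).

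C1qb, the B chain, gave an answer that depended on the probe set. The probe set with the highest mean, 1434366_x_at, stood for the gene in the test and was at 7.86, 7.55 and 7.60 in the Leca4 mutants, against 7.70, 7.47, 7.61 and 7.57 in the controls. The groups overlapped there, with a log2 change of 0.08 ± 0.09 (adjusted p = 0.703 in limma). The other kept probe set, 1417063_at, was at 7.81, 7.68 and 7.53 in the Leca4 mutants, against 7.30, 7.18, 7.17 and 7.26 in the controls. With it every mutant was above every control, and the change was close to those of C1qa and C1qc. When probe sets with the plain suffix _at were taken before those ending in _x_at, _s_at or _a_at, a choice made after the values were seen, C1qb changed by 0.45 ± 0.10 and rose (adjusted p = 0.0132 in limma). The suffix _x marks probes that may bind other transcripts too. A remaining probe set of C1qb, 1437726_x_at, was at or below the filter level on all arrays.

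Csf1r encodes the receptor for CSF1 and IL-34 that keeps microglia alive. It was at 9.46, 9.61 and 9.38 in the Leca4 mutants, against 9.05, 8.91, 9.12 and 9.17 in the controls. All mutants were above all controls, and Csf1r rose 1.34-fold (log2 change 0.42 ± 0.10, adjusted p = 0.02 in limma). Its other probe sets gave smaller differences, which did not pass the test. The change was 0.26 with 1419873_s_at, where the groups did not overlap (adjusted p = 0.147), and 0.14 with 1423593_a_at, where they did (adjusted p = 0.419, both in limma over all kept probe sets).

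**Figure D1:**
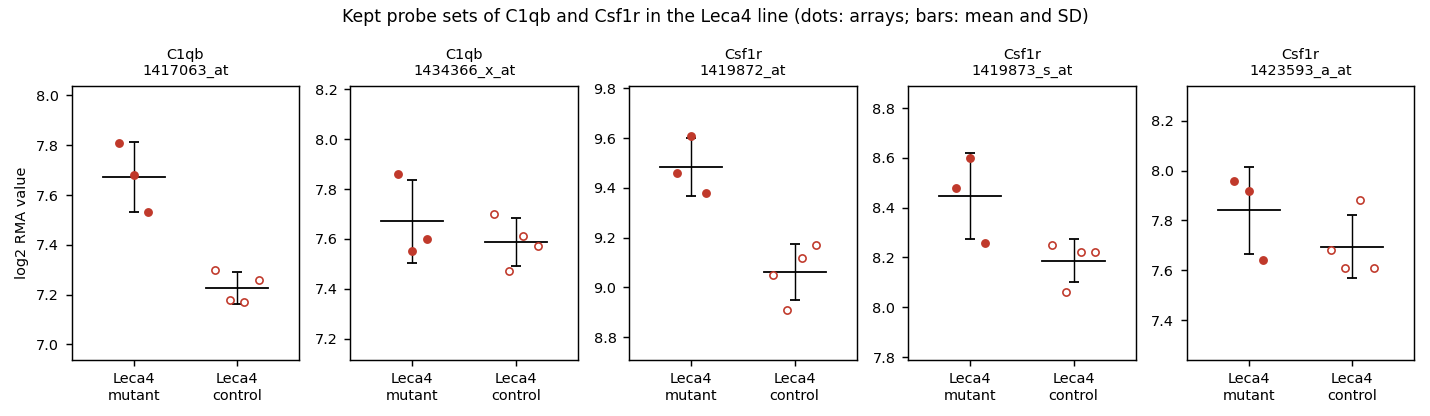
Each panel plots 1 kept probe set of C1qb or Csf1r in the Leca4 line, with the log2 RMA value on the vertical axis, each array as a dot (filled for mutants, open for controls) and the mean and SD of the group as bars. The mutants stand clear of the controls for 1417063_at, 1419872_at and 1419873_s_at, and the groups overlap for 1434366_x_at and 1423593_a_at.

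Cx3cr1, the receptor for the neuronal chemokine fractalkine, was at 8.12, 7.98 and 7.74 in the Leca4 mutants, against 7.54, 7.62, 7.67 and 7.62 in the controls. The lowest mutant was 0.13 above the control mean and just above the highest control. Cx3cr1 rose 1.26-fold (log2 change 0.33 ± 0.10, adjusted p = 0.0457 in limma), the closest to the threshold of the 5 calls. Its other probe set did not pass the filter.

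Tyrobp encodes DAP12, the adaptor through which TREM2 and other receptors signal in myeloid cells. It was at 8.31, 8.19 and 7.82 in the Leca4 mutants, against 7.58, 7.71, 7.80 and 7.75 in the controls. Every mutant was above every control, mutant 3 by little, and the log2 change of 0.40 ± 0.12 missed the threshold (adjusted p = 0.0559 in limma). Trem2, the lipid-sensing receptor that pairs with DAP12, differed from the other members. It was at 6.62, 6.54 and 6.81 in the Leca4 mutants, against 6.72, 6.81, 6.72 and 7.01 in the controls. The groups overlapped, with a log2 change of -0.16 ± 0.09 (adjusted p = 0.423 in limma), the only negative one of the 10 in this line. The second probe set of Trem2 did not pass the filter.

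Both lysosomal enzymes of the list were higher on each Leca4 mutant array. Lyz2, which encodes the lysozyme of macrophages, was at 6.80, 6.57 and 6.71 in the Leca4 mutants, against 6.31, 6.36, 6.16 and 6.23 in the controls. It rose 1.35-fold, with no overlap (log2 change 0.43 ± 0.11, adjusted p = 0.0264 in limma). Ctss, the cathepsin S that cleaves the invariant chain in antigen-presenting cells, was at 8.92, 9.16 and 8.91 in the mutants, against 8.85, 8.51, 8.89 and 8.61 in the controls. The groups stood barely apart, and the log2 change of 0.28 ± 0.13 did not pass the test (adjusted p = 0.237 in limma).

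Aif1 encodes IBA1, the actin-binding protein whose antibody is used to stain microglia. It was at 6.65, 6.76 and 6.78 in the Leca4 mutants, against 6.57, 6.29, 6.37 and 6.18 in the controls. Every mutant was above every control, and the log2 change of 0.37 ± 0.13 did not pass the test (adjusted p = 0.0962 in limma). Aif1 was not above filter level on every array: it lay above the filter level, the 40th percentile of each array at 5.37 to 5.6, on 13 of 21 arrays, where the chosen probe sets of the other 9 members did so on all 21.

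**Figure D2:**
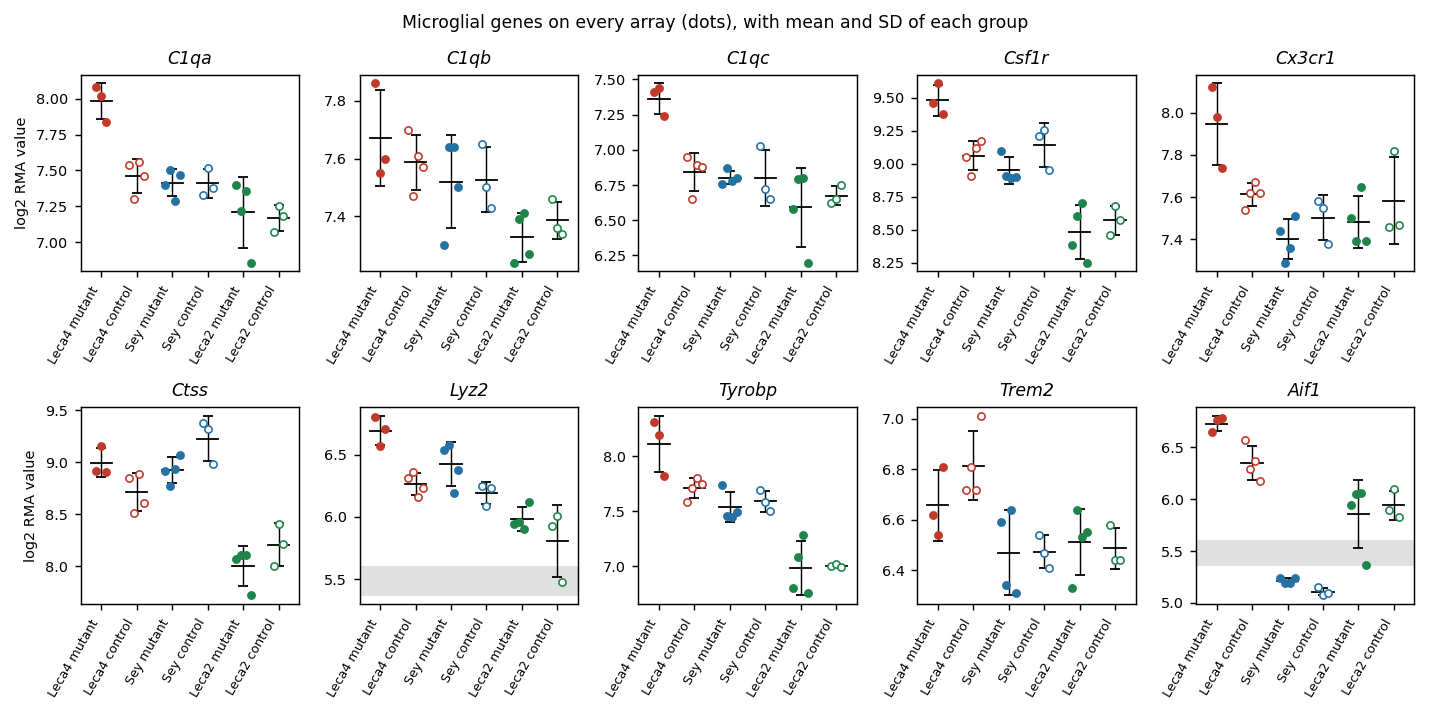
Each panel plots 1 gene by the probe set that stands for it, with the log2 RMA value on the vertical axis, every array as a dot and the mean and SD of each of the 6 groups as bars, mutants left of their own controls; grey bands in the panels of Lyz2 and Aif1 mark the range of the filter level, 5.37 to 5.6. The Leca4 mutants stand above their controls in 8 panels, all but C1qb and Trem2, and levels may be compared only within a line.

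The difference in Leca4 was present on each mutant array. Counted per array, 9, 8 and 8 of the 10 members were above every control on arrays 1, 2 and 3, where 25.7%, 28.1% and 28.7% of all genes were. The median deviation of the members from the control mean was 0.45, 0.43 and 0.26 on the log2 scale. Mutant 3 had the lowest value of the mutants for 6 of the 10 members and mutant 1 the highest for 5. The 2 members whose groups overlapped differed in sign between arrays or lay at or below the control mean: C1qb deviated by 0.27, -0.04 and 0.01 on arrays 1, 2 and 3, and Trem2 by -0.19, -0.27 and 0.00.

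The calls were less stable than the direction when arrays were left out. Without mutant 1, which has the largest deviations, only C1qa was still called (log2 change 0.47, adjusted p = 0.0339 in limma), with C1qc and Csf1r each at an adjusted p of 0.055. The count was 3 of 10 without mutant 2 and without control 2, 3 or 4, 4 without control 1 and 5 without mutant 3. C1qa was called in all 7 of these fits, with changes of 0.46 to 0.59, C1qc in 6, Csf1r in 4, Lyz2 in 3 and Cx3cr1 in 1. Tyrobp was called in 1, without mutant 3 (log2 change 0.54, adjusted p = 0.0121 in limma). The median change of the 10 genes stayed between 0.35 and 0.43.

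**Figure D3:**
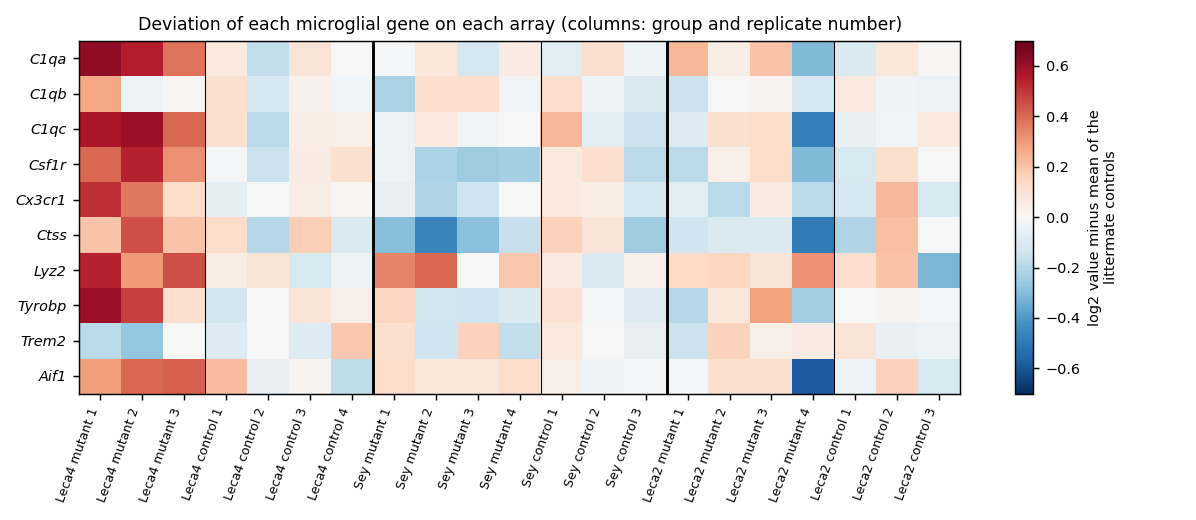
Rows are the 10 genes and columns the 21 arrays, mutants left of their controls in each line; the colour gives the log2 value minus the mean of the littermate controls, red above and blue below. The Leca4 mutant columns are red for most genes, with medians of 0.45, 0.43 and 0.26, and the column of Leca2 mutant 4 is blue for 8 of 10, with a median of -0.27.

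The Sey comparison had many more calls over all genes, 20.2% of those tested, and none of the 10 microglial genes was among them (limma; 2 had an unadjusted p under 0.05, where 31.7% of all genes did). The median log2 change was -0.01, against 0.00 over all genes. The complement chains lay on the level of their controls. C1qa was at 7.40, 7.50, 7.29 and 7.47 in the Sey mutants, against 7.33, 7.52 and 7.38 in the controls, and the 95% interval of the change ran from -0.22 to 0.22. For C1qc the interval was -0.25 to 0.25 and for C1qb -0.19 to 0.18. In each of the 3 the groups overlapped. Counted per array, 2, 5, 5 and 3 of the 10 members were below every control on Sey mutants 1, 2, 3 and 4. Over all genes 31.5%, 33.5%, 34.2% and 33.9% were. Above every control were 4, 2, 2 and 2 members, where 40.1%, 33.3%, 33.1% and 32% of all genes were.

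Ctss had the largest change of the 10 in Sey and it was downward. It was at 8.92, 8.77, 8.94 and 9.07 in the Sey mutants, against 9.38, 9.32 and 8.98 in the controls. Only 1 mutant was above the lowest control, and the log2 change of -0.30 ± 0.13 did not pass the test (adjusted p = 0.105 in limma). Lyz2 went the other way, at 6.54, 6.58, 6.19 and 6.38 in the Sey mutants, against 6.25, 6.09 and 6.23 in the controls (log2 change 0.23 ± 0.11, adjusted p = 0.156). Csf1r was at 9.10, 8.91, 8.89 and 8.90 in the Sey mutants, against 9.21, 9.26 and 8.95 in the controls (log2 change -0.19 ± 0.10, adjusted p = 0.229). For neither gene did the groups stand apart. The other kept probe sets of Csf1r changed by -0.07 (1419873_s_at) and 0.04 (1423593_a_at) in Sey.

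The receptors Cx3cr1 and Trem2 and the adaptor Tyrobp changed by -0.10, -0.01 and -0.05 in Sey, with adjusted p of 0.514 to 0.969 in limma. Aif1 was at or below the filter level on every Sey array, at 5.24, 5.19, 5.19 and 5.24 in the mutants against 5.15, 5.08 and 5.10 in the controls, so no fold is given for it. The call for Ctss turned with the processing: it fell without control 3, by 0.42 (adjusted p = 0.0369 in limma), and with array weights, by 0.33 (adjusted p = 0.0398). No other member was called under either setting.

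In Leca2 mutants, too, none of the 10 was called, and none had an unadjusted p under 0.05 (limma). Here only 0.477% of all genes were called and 6.84% had such a p. The median log2 change was -0.07, against 0.01 over all genes. Changes ran between -0.21 for Ctss (adjusted p = 0.88) and 0.18 for Lyz2 (adjusted p = 0.889). For C1qa, which was at 7.40, 7.22, 7.36 and 6.86 in the Leca2 mutants against 7.07, 7.25 and 7.18 in the controls, the 95% interval was -0.17 to 0.26.

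The Leca2 mutant arrays differed among themselves. On mutant 1, 5 of the 10 members were below every control and 1 above, where 20.8% and 30.1% of all genes were. On mutants 2 and 3, 1 and 0 members were below every control, where 18.7% and 30.1% of all genes were. Above every control were 3 and 4 members, where 27.6% and 25.4% of all genes were. Mutant 4 lay furthest from the controls. On Leca2 mutant 4, 8 of the 10 members were below every control, where 29.8% of all genes were, and the median deviation was -0.27. Aif1 was at 5.37 there, against 5.94, 6.05 and 6.06 on the other Leca2 mutants and 5.90, 6.10 and 5.83 in the controls. Ctss was at 7.72, against 8.07, 8.11 and 8.11 on the other mutants and 8.0, 8.41 and 8.21 in the controls. C1qc was at 6.20, against 6.58, 6.79 and 6.80 on the other mutants and 6.62, 6.65 and 6.75 in the controls. All 3 genes were lowest on the same array, and of 21 further microglia and macrophage genes 12 were below every control on it. Lyz2 and Trem2 were not below every control on it: Lyz2 was at 6.12, its highest value of the line, and Trem2 at 6.55, against 6.58, 6.44 and 6.44 in the controls. Without mutant 4 the change of C1qa was 0.16 and that of Ctss -0.11, and still no member was called.

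**Figure D4:**
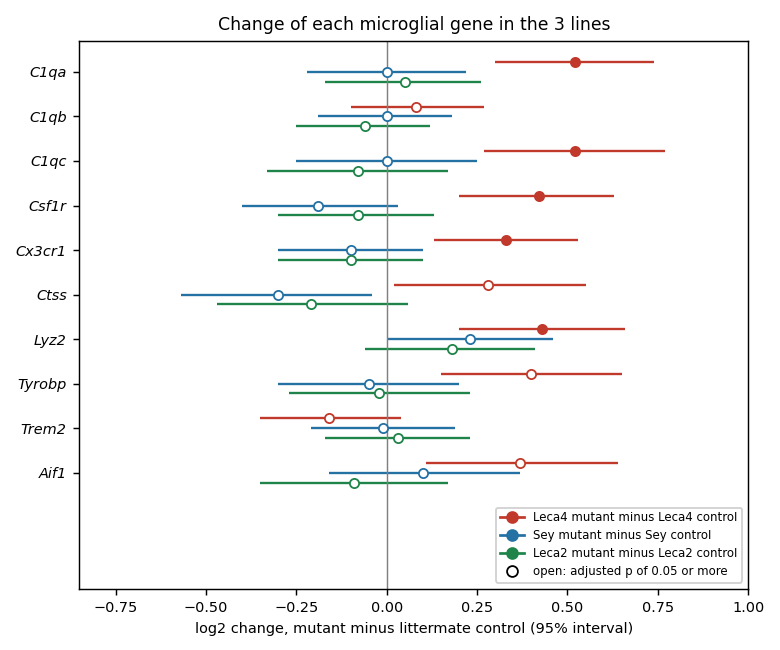
Rows are the 10 genes; the horizontal axis is the log2 change, mutant minus littermate control, with its 95% interval as a bar, in red for Leca4, blue for Sey and green for Leca2, and filled points are called at an adjusted p under 0.05. The filled points are C1qa, C1qc, Csf1r, Cx3cr1 and Lyz2 in Leca4, and no point of the other lines is filled. The Sey point of Aif1 rests on values at or below the filter level.

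Whether the lines differed was tested directly, as the difference between their changes. For 5 of the 10 the Sey change was below the Leca4 change at an adjusted p under 0.05 in limma, where this held for 6.08% of all genes tested. Csf1r differed most, with changes of -0.19 in Sey and 0.42 in Leca4 and a difference of -0.60 ± 0.14 (log2, SE; adjusted p = 0.00897 in limma). This was with 1419872_at, and the size depended on the probe set. With 1419873_s_at the changes of Csf1r were -0.07 in Sey and 0.26 in Leca4, and with 1423593_a_at 0.04 and 0.14. Ctss changed by -0.30 in Sey and 0.28 in Leca4, a difference of -0.58 ± 0.18 (adjusted p = 0.0377). The differences of C1qa (-0.52, adjusted p = 0.0269), C1qc (-0.52, adjusted p = 0.0497) and Cx3cr1 (-0.44, adjusted p = 0.0389) passed as well. For Ctss neither line alone passed its test, while their difference did. Lyz2, which rose in Leca4, had a difference of -0.20 ± 0.16, with a 95% interval of -0.52 to 0.13 (adjusted p = 0.458). With 1 array left out the count lay between 1 and 6 of 10. It was 1 without Sey mutant 3, Sey control 2, Leca4 mutant 2 or Leca4 control 2, 2 without Sey mutant 2, Sey control 1, Leca4 mutant 1 or Leca4 control 4, and 3 without Sey mutant 1. It was also 1 with a term for sex. The Sey line has another strain background than the Leca4 line, and allele and background cannot be told apart in this comparison.

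Leca4 and Leca2 share the 129 S6 background. The Leca4 change minus the Leca2 change was above 0 for 9 of the 10 and for 51.1% of all genes, with a median of 0.45 against 0.00 over all genes, and 0 passed the adjusted test (limma), where 2.38% of all genes did. For 7 of the 10 the unadjusted p was under 0.05, as it was for 14.7% of all genes. The difference was 0.61 ± 0.17 for C1qc (adjusted p = 0.0643), 0.50 ± 0.14 for Csf1r (adjusted p = 0.0754) and 0.47 ± 0.15 for C1qa (adjusted p = 0.107). Its 95% intervals lay above 0 for these 3, from 0.25 to 0.96, from 0.20 to 0.81 and from 0.16 to 0.78. The other kept probe sets of Csf1r, 1419873_s_at and 1423593_a_at, changed by 0.26 and 0.14 in Leca4, against -0.01 and 0.02 in Leca2. The count was 3 with array weights, 2 with a term for sex, 2 without Leca2 mutant 3 and 1 without Leca4 mutant 3. Between Sey and Leca2 no member differed (0 of 10 in limma, with none at an unadjusted p under 0.05), where 6.69% of all genes did and 19.2% had such a p, and the estimates ran from -0.10 to 0.09 without Aif1, which was at or below the filter level on the Sey arrays.

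A list of other microglia and macrophage genes had a smaller median change than the 10. Of 30 listed, 21 were tested. In Leca4 3 of these rose and 0 fell, where 3.39% of all genes rose and 2.24% fell. The median log2 change was 0.15, and 17 of 21 changes were above 0, as were 52.1% of those of all genes. Cyba, a subunit of the phagocyte NADPH oxidase, rose 1.44-fold, to 8.43 ± 0.26 in the Leca4 mutants against 7.91 ± 0.14 in the controls (SD, n = 3 and 4; adjusted p = 0.00394 in limma). Fcgr3, a receptor for the constant part of antibodies, rose 1.29-fold (adjusted p = 0.041) and Mpeg1, a pore-forming protein of macrophages, 1.26-fold (adjusted p = 0.0396). The changes of the 21 ran from -0.17 for Runx1 to 0.52 for Cyba. Spi1 changed by 0.13 (adjusted p = 0.445 in limma) and P2ry12 by 0.15 (adjusted p = 0.799). P2ry13 changed by 0.02 (adjusted p = 0.939 in limma) and Tmem119 by -0.03 (adjusted p = 0.938). In 6 of the 21 every mutant array lay above every control array, against 8.25% of all genes. In 2, Runx1 and Coro1a, every mutant array lay below every control array, against 7.03% of all genes. The summed level of the 21 genes was 12.15 to 12.16 in the Leca4 mutants, above the 11.98 to 12.04 in their controls. Such a sum of unlogged values weighs the brightest genes most. Here these were Coro1a, at 10.06 in the Leca4 mutants against 10.13 in the controls, and Sall1, at 9.38 against 9.12.

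In the Sey line the same list had 1 rise, where 10.7% of all genes rose, and a median of -0.12. The rise was that of Sall1 (log2 change 0.41, adjusted p = 0.0135 in limma), a transcription factor that microglia share with neural progenitors. In Leca2 none of the 21 genes of the list was called in limma, and none had an unadjusted p under 0.05. Over all genes 0.477% were called there and 6.84% had such a p. The median of the list in Leca2 was -0.03.

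Other cells of the dissected tissue were followed by lists of their own. Of 10 genes of macrophages at the borders of the brain 4 were tested, Pf4, Folr2, Ms4a7 and Stab1, and 0 were called in Leca4, with changes of -0.01 to 0.12. Mrc1 and Lyve1, further marks of these cells, did not pass the filter. Of 11 monocyte and neutrophil genes 3 were tested, Ccr2, Camp and Ngp, and 0 were called. Ngp was at or below the filter level on all Leca4 arrays. Ccr2, a chemokine receptor of monocytes, was at 6.51 ± 0.08 in the Leca4 mutants against 6.33 ± 0.11 in the controls (SD, n = 3 and 4), and Camp, a granule peptide of neutrophils, at 6.35 ± 0.09 in the mutants against 6.28 ± 0.08 in the controls. The groups overlapped for both. The summed level of the 3 was 7.58 to 7.74 in the mutants against 7.46 to 7.57 in the controls. S100a8, S100a9, Mpo, Elane and Lcn2, which are abundant in neutrophils, did not pass the filter. The 12 endothelial and pericyte genes had a median of 0.00 in Leca4 and 0 calls, and their sums were 11.73 to 12.01 in the mutants against 11.79 to 11.93 in the controls. The 5 erythroid genes tested had sums of 13.15 to 13.38 in the mutants and 12.97 to 13.36 in the controls, with 0 calls. The 4 meninges genes had sums of 8.56 to 8.59 in the mutants and 8.58 to 9.21 in the controls, again with 0 calls. The sum of the monocyte list, which rests on Ccr2 and Camp, lay higher in the mutants, and its part in the result was not tested. At an unadjusted p under 0.05 in limma these lists held 1 monocyte gene and 1 meninges gene in Leca4, and no gene of the others. Over all genes 18.3% had such a p in Leca4, and 5.62% were called. Lists of 3 to 12 genes may hold no call at such shares, so these counts do not show that other cells were unchanged.

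The 3′ and 5′ control probe sets, whose distance is a sign of RNA quality, differed little. For Gapdh the log2 difference was -0.09 to 0.01 in the Leca4 mutants and -0.12 to -0.08 in the controls, and for Actb 0.43 to 0.50 in the mutants and 0.38 to 0.44 in the controls. The part of this small shift in the result was not tested.

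**Figure D5:**
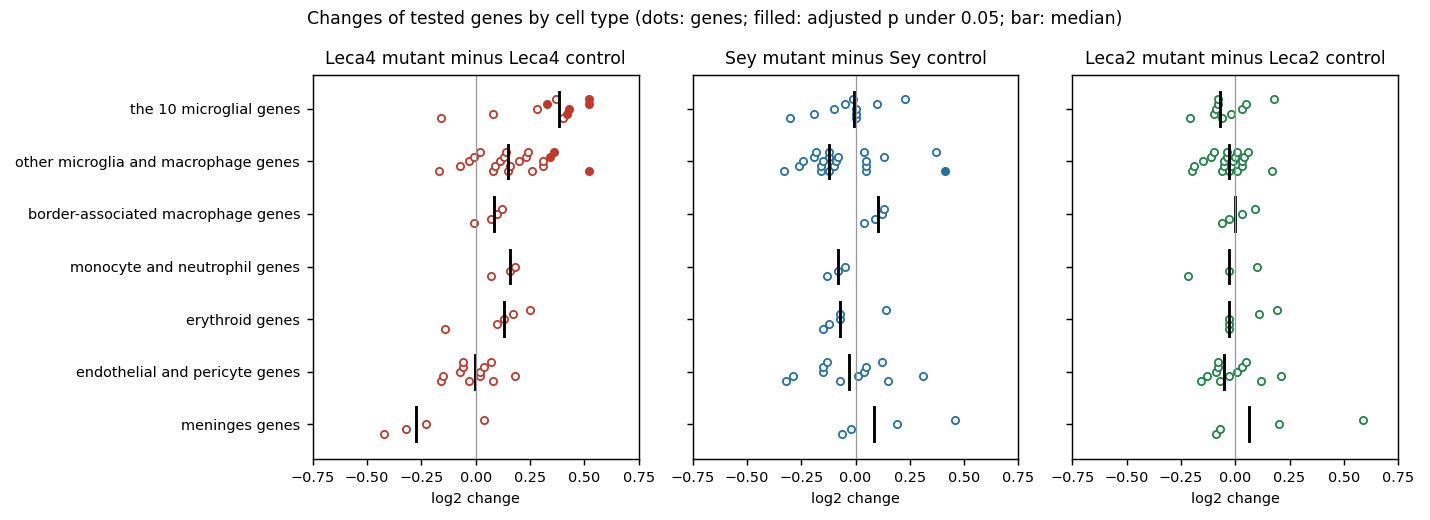
Each dot is a tested gene, with its log2 change, mutant minus littermate control, on the horizontal axis, the lists as rows, the lines as panels, filled dots for an adjusted p under 0.05 and a black bar at the median. In Leca4 the microglial genes (median 0.39) and the other microglia and macrophage genes (median 0.15) lie to the right of 0, and the meninges genes (median -0.28) to the left.

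Ligands of receptors on microglia, not only of the receptors followed above, made up another list. Of 9 ligand genes 8 were tested, and their changes in Leca4 ran from -0.12 to 0.06. Of the 8, 0 were called there (limma), where 5.62% of all genes were. None had an unadjusted p under 0.05, where 18.3% of all genes did. Csf1, a ligand of Csf1r, was at 8.0 ± 0.06 in the Leca4 mutants against 7.94 ± 0.11 in the controls (SD, n = 3 and 4). In Sey 3 of the 8 fell and 1 rose, where 9.41% of all genes fell and 10.7% rose. Csf1 was at 7.41 ± 0.07 in the Sey mutants against 7.88 ± 0.06 in the controls (SD, n = 4 and 3) with a log2 change of -0.47, and fell (adjusted p = 3.46e-04 in limma). Cd47, which signals against engulfment, fell by 0.56 (adjusted p = 0.00288). Cxcl12, a chemokine that also guides microglia, fell by 2.55 in Sey (adjusted p = 6.38e-09) and by 1.44 in Leca2 (adjusted p = 1.74e-04). Cx3cl1, the ligand of Cx3cr1, rose by 0.23 in Sey (adjusted p = 0.0398).

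The signalling chain around TREM2 and DAP12 had 8 tested genes. In Sey 2 of the 8 were called, both lower, where 20.2% of all genes were called in either direction. All 8 changes were below 0 there, where 49.9% of all genes had a change above 0. The median log2 change was -0.11, against 0.00 over all genes. On Sey mutants 2 and 3, 7 of the 8 were below every control, where 33.5% and 34.2% of all genes were. On mutants 1 and 4, 4 and 6 of the 8 were, where 31.5% and 33.9% of all genes were. Mutant 1 also had 2 of the 8 above every control, and mutant 4 had 1. Hcst, which encodes the adaptor DAP10, fell by 0.29 in Sey (adjusted p = 0.0129 in limma), and Btk, a kinase of myeloid and B cells, fell by 0.25 (adjusted p = 0.0382). The mean of Hcst in the Sey mutants was 5.38, within the range of the filter level, so the size of its fall is uncertain. In Leca4 1 of the 8 was called, where 5.62% of all genes were. This was Hcst, higher in the mutants at 5.68 ± 0.09 (SD, n = 3; adjusted p = 0.0362 in limma), and no fold is given because it was at or below the filter level in every control. It lay above that level on 8 of 21 arrays. No gene of the chain was called in Leca2 in limma, and none had an unadjusted p under 0.05, where 0.477% and 6.84% of all genes did.

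Across arrays most of the 10 genes moved together, also where group means were taken out. Each value was set as the deviation from its group mean, scaled to unit SD, over the 21 arrays, and each gene was compared with the mean of the other 9. Pearson's r was 0.78 for Csf1r, 0.775 for C1qc, 0.651 for Tyrobp, 0.621 for Ctss, 0.599 for Aif1, 0.563 for C1qa and 0.547 for Cx3cr1. It was 0.27 for C1qb, -0.166 for Trem2 and -0.183 for Lyz2, so these 3 were weakly or negatively correlated with the mean of the others. The values of 1 array come from the same hybridization, so these are descriptions. Of genes outside the 10 the most alike was Tdrd3 (r = 0.915), then Ly86 (r = 0.881), which encodes MD-1 of myeloid cells, Rgs8 (r = 0.867) and Ncf1 (r = 0.86), a subunit of the NADPH oxidase. Ranks 5 to 15, from Vps53 (r = 0.859) to Kctd13 (r = 0.822), held no gene of the microglia and macrophage lists. Of the 21 other microglia and macrophage genes the median r was 0.48, against 0.01 over all genes. It was 0.57 for the 8 ligand genes, which other cells largely make, and 0.23 for the 12 endothelial and pericyte genes, so a high r was not limited to genes of microglia.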

How the data were processed

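The deposited values are log2 expression values per probe set of an Affymetrix mouse array, made by the authors with RMA, per the submitters' processing notes, in a version and on a build not given in the sources used here. Per the labels' protocols, RNA was extracted with a column kit with DNase treatment, amplified and labelled with biotin. All 21 columns belong to the series, and 0 columns of other series were present. The number of arrays limits the precision, and p-values measure the spread between the samples that the labels call biological replicates.

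Probe sets were named through the platform annotation, updated by gene ID to RefSeq symbols of GRCm38.p6. Of 45101, 64 were controls, 9160 named no gene, 932 several and 34945 a single gene. Probe sets were kept where 3 or more arrays exceeded the 40th percentile of their array, and of a gene's kept probe sets the brightest on average was taken, which gave 13850 genes. Of the 16 probe sets of the 10 genes 13 were kept. In R 4.3.3, limma 3.58.1 (lmFit, eBayes) fitted the 6 groups in 1 model, with 15 residual and 3.54 prior degrees of freedom, two-sided tests and Benjamini-Hochberg adjustment over all genes of a contrast. Errors after log2 changes are standard errors. The code was tested on simulated data. Other settings were a fit of each line alone, a block of replicate numbers, other filters, other choices of probe set, array weights, a robust variance with trend, quantile normalization, median centring, a term for sex and the removal of each array in turn. The rule for named genes was all members with every probe set of their own, the called genes of each list and otherwise up to 3 with the smallest p, Pax6, and the 15 genes most like the members across arrays. Fewer are printed. Genes of a list that did not pass the filter were named beside it, chosen after this was seen. Spi1, P2ry12, P2ry13, Tmem119, Runx1, Coro1a, Grb2 and Pik3cd were named outside the rule, also after their values were seen. The members and lists were chosen with earlier results of these data known.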

Additional observations from a re-analysis of the deposited data

Results flagged for a closer look

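In the 3 groups of 4 arrays, 30 sets of 4 values were searched for a value far from the others, and chance finds about 1 in 20. Csf1r on Sey mutant 1 was at 9.10, with a gap to the next mutant of 0.882 of the range of its group. Tyrobp on the same array was at 7.74, with a gap of 0.846 of the range. Ctss on Leca2 mutant 4 was at 7.72, with a gap of 0.894. The array of Sey mutant 1 had the lowest weight of its group in the fit with array weights, 0.491.

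The change in Sey and the change in Leca4 differed in limma for Csf1r, by -0.60 on the log2 scale (Sey minus Leca4), for Ctss by -0.58, for C1qa and for C1qc by -0.52 each and for Cx3cr1 by -0.44. Allele and strain background differ together in this comparison and cannot be told apart. The difference of Csf1r is that of 1419872_at, and its other kept probe sets changed less in Leca4.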

How the results depend on the processing

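The 30 log2 changes of the 10 genes in the 3 lines gave 561 values under other settings, 210 of them with 1 array left out. Of these, 496 kept their direction and their side of the threshold, 20 lost their call, 6 gained one and 39 changed sign, all 39 of them uncalled in either setting. For Leca4 the number of genes called was 3 with the replicate block and between 1 and 5 with 1 array left out. Cx3cr1 lost its call under 5 of 12 other settings, and the cause was not tested. For Sey 1 gene, Ctss, was called with array weights, and 0 to 1 with 1 array left out. The median of the 10 changes in Sey was -0.05 with the stricter filter, -0.04 with array weights, 0.02 with a term for sex and between -0.06 and 0.01 with 1 array left out. The number of genes that differed between Sey and Leca4 was 2 with the replicate block, 3 with no filter, 2 with every probe set on its own, 1 with a term for sex and between 1 and 6 with 1 array left out. Between Leca4 and Leca2 it was 3 with array weights, 2 with a term for sex and 0 to 2 with 1 array left out.

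Same-numbered mutants and controls had deviations from their group means that correlated with r between -0.44 and 0.338. So few values per line cannot tell whether the replicate numbers pair the arrays. With the replicate block the Sey changes became -0.02 for C1qa, 0.00 for C1qb and 0.05 for Trem2, and the Leca2 changes 0.05 for C1qc, 0.05 for Tyrobp and 0.07 for Aif1. Cx3cr1 and Lyz2 in Leca4 were not called with it (0.34, adjusted p = 0.201, and 0.42, adjusted p = 0.106, in limma), and over all genes it called 450 in Leca4 and 28 in Leca2.

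Other changes of sign were small. C1qb changed by 0.01 in Sey and 0.04 in Leca2 with the mean of its probe sets, by 0.03 and 0.15 with probe sets of 1 transcript first, and in Sey by 0.00 with array weights and 0.06 with a term for sex. In Sey C1qc changed by -0.04 with array weights and -0.01 with quantile normalization, and C1qa by -0.02 with quantile normalization as well. C1qa in Leca2 changed by -0.05 with a term for sex. With 1 array left out the Sey changes ran from -0.04 to 0.06 for C1qa, -0.05 to 0.07 for C1qb, -0.07 to 0.12 for C1qc and -0.06 to 0.05 for Trem2. The Leca2 changes ran from -0.02 to 0.16 for C1qa, -0.15 to 0.05 for C1qc, -0.16 to 0.01 for Cx3cr1, -0.12 to 0.05 for Tyrobp, -0.02 to 0.09 for Trem2 and -0.16 to 0.07 for Aif1, and in Leca4 C1qb ran from -0.01 to 0.14. Over all genes the calls of 779 in Leca4, 2791 in Sey and 66 in Leca2 became 400 in Leca4 and 27 in Leca2 with each line fitted alone, 4311 in Sey and 110 in Leca2 with every probe set, 121 in Leca2 with array weights, 512 in Leca4 without mutant 1 and 40 in Leca2 without mutant 2. A fit of each line alone gives no difference between lines, and Lyz2, Trem2 and Aif1 were not tested under the stricter filter, whose level is 6.82 to 7.11.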

Other observations

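Of 10 tested genes of activated and phagocytic microglia, 1 rose and 1 fell in Leca4, where 3.39% of all genes rose and 2.24% fell. The median log2 change was 0.17, against 0.01 over all genes. The rise was that of Lgals1, which encodes galectin-1 and is made by many cell types, at 10.38 ± 0.22 in the Leca4 mutants against 8.40 ± 0.15 in the controls (SD, n = 3 and 4; adjusted p = 2.73e-11 in limma). Lgals1 also rose in Sey, by 0.66 (adjusted p = 1.43e-05). Lpl, a lipase that neurons of the cortex make too, fell by 0.80 in Leca4 (adjusted p = 0.00643). Ctsb, a lysosomal protease found in most cells, fell by 0.32 in Sey (adjusted p = 0.00137).

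Of 11 complement genes outside C1q, 4 were tested. Cd59a, which blocks the membrane attack complex, rose by 0.45 in Leca4 (adjusted p = 0.0124 in limma). Masp1, a protease of the lectin pathway, fell by 0.75 in Sey (adjusted p = 1.57e-05) and Serping1, the C1 inhibitor, fell by 0.47 (adjusted p = 4.15e-04). In Leca2 none of the 4 was called, and none had an unadjusted p under 0.05, where 0.477% and 6.84% of all genes did. Of 6 apoptosis genes tested, 1 was called in Leca4, where 5.62% of all genes were. This was Casp8, which rose by 0.29 (adjusted p = 0.0335 in limma). Bcl2l11, which encodes the death-promoting protein BIM, rose by 0.90 in Sey (adjusted p = 7.27e-05) and by 0.76 in Leca2 (adjusted p = 0.00825). Its change in Leca4 was 0.12 (adjusted p = 0.728). Apaf1 rose by 0.29 in Sey (adjusted p = 0.0133).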
